A study of Mus musculus with 12 samples.

Results

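Rac1 is a small GTPase that switches actin assembly on at the cell edge, and 40 genes that act downstream of it or beside it were followed in MC38 tumor cells: the WAVE complex, the Arp2/3 complex, PAK kinases, the LIMK-cofilin axis, the scaffolds IQGAP and IRSp53, the mDia formins, and the profilins with Ena/VASP proteins. Members were chosen by gene symbol, matched to the Ensembl identifiers of the count table through GENCODE M21, and all 40 had a row among 33219 features. Of these, 37 had enough counts to be tested, and Wasf3, Pak3 and Iqgap2 did not, with at most 1.01 CPM, the count scaled to library size, in any sample.

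In the textbook pathway, active Rac binds the Cyfip subunit of the WAVE complex, which frees the WAVE protein to activate Arp2/3, the complex that starts new actin branches on existing filaments. Rac also activates PAK kinases, which phosphorylate LIM kinases, and these phosphorylate cofilin so that it no longer severs filaments, a step that slingshot phosphatases reverse. Formins and Ena/VASP proteins lengthen unbranched filaments from actin monomers that profilin delivers.

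Bulk RNA-seq was performed on tumor cells recovered from MC38 tumors grown in mice of the strain C57BL/6. MC38 is a mouse colon cancer line, and its A159V cells carry the Rac1 mutation on both alleles, introduced with CRISPR-Cas9, while WT cells do not. The comparison covered 4 groups with n = 3 mice each, namely both genotypes (WT, A159V) under IgG or anti-PD1, where IgG is the isotype control of the checkpoint antibody against PD1. Tumor cells were enriched from dissociated tumors with magnetic beads. The A159V cells were derived from a single edited cell, so the mutation and the history of a clone cannot be told apart in the comparisons of genotypes.

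Total counts ranged from 14053582 to 21949942 per sample, and 14340 genes were tested. A gene was called when its adjusted p was under 0.05 and its absolute log2 fold change above 0.3 in edgeR's quasi-likelihood test. Under IgG, Rac1 itself was at 451 ± 55.5 CPM in WT and 420 ± 65.1 CPM in A159V (SD, n = 3), under anti-PD1 at 423 ± 25.6 CPM and 372 ± 35.4 CPM, and its log2 fold change of -0.11 under IgG was not called (standard error 0.15, adjusted p = 0.624). Gene counts do not show the edited base. The label gives an adenocarcinoma, but Epcam had at most 2 counts in any sample and the 8 epithelial markers summed to between 1.53 and 5.9 CPM. Markers of other cells moved with the groups. Summed over 17 leukocyte markers, WT reached 38.6 to 44.3 CPM with IgG and 67 to 97.3 CPM with anti-PD1, A159V 49.8 to 66 CPM with IgG and 50.7 to 56.4 CPM with anti-PD1, and in A159V IgG 33.6 to 50.1 CPM of it was Cd68, while the pan-leukocyte gene Ptprc had 0 to 5 counts in A159V samples. Gene by gene, 9 of the 13 leukocyte markers tested had a negative log2 fold change in A159V against WT under each treatment, with 5 called lower and 1 higher under IgG (median -1.60) and 9 lower and 0 higher under anti-PD1 (median -2.42). For 10 stromal and endothelial markers, the sums were 244 to 468 CPM, 367 to 613 CPM, 166 to 235 CPM and 141 to 194 CPM in the same order. Their part in the results was not tested, and in bulk samples fewer cells of a type cannot be told apart from less RNA per cell.

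WT IgG replicates 1 and 4 departed from their group in opposite directions, in a way that touches these genes. Across the 37 members, the deviation of replicate 1 from the group mean fell with exon length (Spearman's coefficient -0.78, with -0.49 over 14216 genes). That of replicate 4 rose with it (coefficient 0.69 over the members and 0.48 over 14216 genes). Deviations from the mean of the same group are not independent of each other. In A159V IgG, replicate 5 was the lowest of its group for Nckap1, Abi1, Actr2, Actr3 and Diaph3. CPM values are listed below in the order of the replicates, 1, 2 and 4 in WT IgG, 1, 2 and 5 in A159V IgG, and 1, 2 and 3 under anti-PD1.

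Promoter sequences are shown for 5 of the 6 members called in the same direction in both comparisons of genotypes, Arpc1b, Limk1, Limk2 and Diaph3, which were higher in A159V, and Evl, which was lower. The window of Baiap2, the other one, lies inside the annotated gene and is not printed. They come from RefSeq windows on GRCm38.p6, which held an entry for 33 of the 40 members, and only bases before the annotated start of the gene in GENCODE are printed, 5′ to 3′ on the strand of the gene. Capitals mark GGGCGG, the core of the GC box, or its reverse complement CCGCCC, and neighbouring matches can run together. That of Diaph3 held no match.
Arpc1b (chr5:145114006-145114214, plus strand): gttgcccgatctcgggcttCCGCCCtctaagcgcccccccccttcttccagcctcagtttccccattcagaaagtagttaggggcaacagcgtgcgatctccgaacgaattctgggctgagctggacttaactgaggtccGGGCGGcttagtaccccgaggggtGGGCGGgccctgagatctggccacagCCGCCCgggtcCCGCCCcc
Limk1 (chr5:134688599-134688840, minus strand): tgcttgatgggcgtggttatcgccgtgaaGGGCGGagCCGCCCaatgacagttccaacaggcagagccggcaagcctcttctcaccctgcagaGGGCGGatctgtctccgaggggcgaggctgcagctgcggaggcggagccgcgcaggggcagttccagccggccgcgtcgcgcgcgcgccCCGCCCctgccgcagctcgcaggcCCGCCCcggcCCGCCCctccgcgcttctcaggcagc
Limk2 (chr11:3409239-3409488, minus strand): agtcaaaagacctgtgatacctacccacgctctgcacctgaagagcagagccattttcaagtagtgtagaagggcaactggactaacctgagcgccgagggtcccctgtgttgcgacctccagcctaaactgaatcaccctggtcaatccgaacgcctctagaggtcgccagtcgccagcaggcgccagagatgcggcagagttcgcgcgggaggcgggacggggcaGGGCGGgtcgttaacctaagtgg
Diaph3 (chr14:87141236-87141474, minus strand): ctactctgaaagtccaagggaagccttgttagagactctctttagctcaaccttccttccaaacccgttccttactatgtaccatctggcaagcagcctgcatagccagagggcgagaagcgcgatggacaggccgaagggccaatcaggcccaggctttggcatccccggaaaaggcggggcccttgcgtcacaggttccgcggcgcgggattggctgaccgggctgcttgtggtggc
Evl (chr12:108554470-108554719, plus strand): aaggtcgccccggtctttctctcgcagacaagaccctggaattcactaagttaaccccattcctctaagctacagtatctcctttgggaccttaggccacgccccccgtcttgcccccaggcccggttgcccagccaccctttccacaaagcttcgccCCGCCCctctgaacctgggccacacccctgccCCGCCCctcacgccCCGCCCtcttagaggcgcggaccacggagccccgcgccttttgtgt
Over the 250 bases before the RefSeq start, GGGCGG on either strand was present in 25 of 42 windows of members (59.5%), in 12 of 18 windows of called members (66.7%) and in 32.7% of 32851 windows of all genes. The CArG box, which serum response factor binds in many actin genes, was found in 1 window of a member (2.38%), that of Arpc4, and in 1.47% of all windows. A match is a description of these letters and not of binding, and the GC content of the 5 windows was 58.8% to 73.6%, against a median of 52.4% over all windows.

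Under IgG, 17 of the 37 tested members were called between A159V and WT, 14 higher and 3 lower. The higher members were both LIM kinases, 2 of 3 formins, 3 WAVE genes, 2 Arp2/3 subunits, 2 PAK kinases, Ssh1, Vasp and Enah, and the lower ones were Baiap2, Evl and Pfn2. Over all genes, 28% were called, 15.6% higher and 12.4% lower. Among the members the log2 fold change had a median of 0.40, with 0.018 over all genes. With RLE scaling the split of all genes called was 1680 higher and 2052 lower in place of 2231 and 1779, and that of the members 9 higher and 3 lower. Samples of the groups did not overlap for 17 members, and for 35.8% of all genes. The plot of effects by role shows both comparisons of genotypes side by side.

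**Figure D1:**
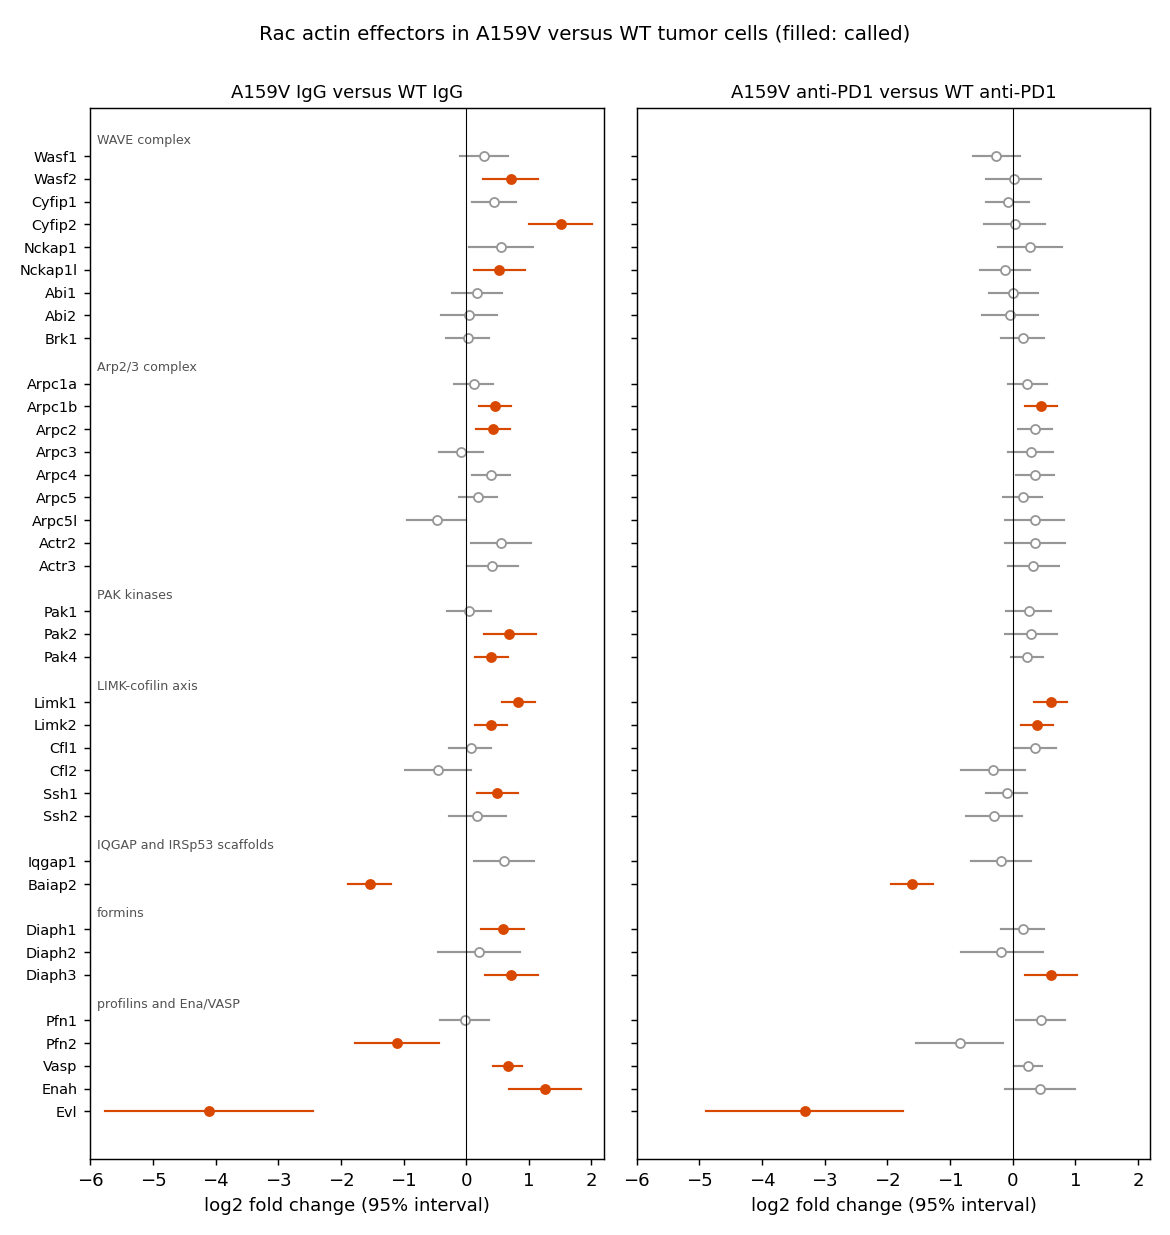
Log2 fold change of each of the 37 tested members (points) with its 95% interval (lines), grouped by role, for A159V against WT under IgG (left) and under anti-PD1 (right); filled orange points are called. Under IgG, 14 members were called higher and 3 lower, and under anti-PD1 4 were called higher and 2 lower.

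Leaving out 1 library moved the count under IgG both ways, to between 8 and 20 members. It was 8 without A159V IgG replicate 2, 9 without WT IgG replicate 2, 11 without WT IgG replicate 1 and 20 without WT IgG replicate 4. The shares of all genes called were 17.5%, 19.9%, 22.4% and 31% in this order. Leaving out WT IgG replicate 1 and A159V IgG replicate 5 together gave 17 members and 36.7% of all genes. Removing each sample's trend with exon length gave 16 and 28.3%. Both were chosen after the data were seen. A fit to the IgG groups alone called 5 members and 10.3% of all genes. A leukocyte score as a covariate left 3 members (Baiap2, Cyfip2 and Limk1) and 5.13% of all genes. Under anti-PD1, 6 members were called between the genotypes, 4 higher and 2 lower, against 21.4% of all genes, 11.2% higher and 10.2% lower. The median of the members was 0.23, with 0.064 over all genes, and 24 members did not overlap between the groups, as did 56.1% of all genes. The count was 3 without WT anti-PD1 replicate 2 or 3, or without A159V anti-PD1 replicate 2 or 3, where 10.4% to 14.7% of all genes were called. It was 11 in a fit to the anti-PD1 groups alone (38.5% of all genes). It was also 11 without WT IgG replicate 1 and A159V IgG replicate 5 (37.9%). With the leukocyte score it was 0, and 0.0139% of all genes were called. With RLE scaling, 1123 genes were called higher and 1672 lower in place of 1613 and 1462, and 2 members higher (Arpc1b and Limk1) and 2 lower (Baiap2 and Evl). With upper-quartile scaling, 931 genes were called higher and 1788 lower, and 1 member was higher (Limk1) and 2 were lower (Baiap2 and Evl). Whether the number of members called differs between the treatments was not tested. All 6 were also called under IgG in the same direction, which was 35.3% of the 17 called there. Over all genes, the shared calls were 53.1% of those under anti-PD1 and 40.7% of those under IgG. These comparisons have no sample in common. With DESeq2, 16 members were called under IgG and 7 under anti-PD1, against 30.2% and 23.7% of all genes.

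The LIM kinases were higher in A159V under both treatments. Limk1, on chromosome 5 from 134656039 to 134688598, was at 38.2, 47.5 and 43.9 CPM in WT IgG and at 76.4, 68.9 and 85.6 CPM in A159V IgG. Under anti-PD1 it was at 46.6, 48.8 and 47.8 CPM in WT and at 70.1, 73.7 and 74.7 CPM in A159V. Every A159V sample was above every WT sample, a change of 0.83 on the log2 scale under IgG (standard error 0.12, adjusted p = 0.000621) and 0.61 under anti-PD1 (standard error 0.12, adjusted p = 0.00411). Limk2, its paralog on chromosome 11, was at 55.7, 64.1 and 61.5 CPM in WT IgG, and at 74, 74.1 and 90.2 CPM in A159V IgG. With anti-PD1 it was at 57.7, 57.3 and 56.2 CPM in WT and at 70.4, 79.7 and 73.4 CPM in A159V, again without overlap. Its log2 fold change was 0.39 in both comparisons (standard error 0.12, adjusted p = 0.027 under IgG and 0.0358 under anti-PD1). That call was lost under IgG without WT IgG replicate 1 or 2 or A159V IgG replicate 5 (adjusted p of 0.088 to 0.137), and under anti-PD1 without 8 of the 12 libraries taken one at a time (0.0554 to 0.116). Of 10 settings other than leaving out 1 library, 8 lost it under IgG and 4 under anti-PD1. RLE and upper-quartile scaling were among them in both comparisons.

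The share of Limk1 in the LIM kinase pair, on the scale of CPM per kb of exon, was 37.8% ± 0.9 in WT and 45.2% ± 1.38 in A159V under IgG, and 41.6% ± 0.693 and 45.4% ± 1.27 under anti-PD1 (SD, n = 3). All 6 A159V samples lay between 44% and 46.8%, above the 6 WT samples, which lay between 36.9% and 42%. The other genes of this axis differed less or in either direction. Ssh1, a slingshot phosphatase, was at 25.4, 28.1 and 35.1 CPM in WT IgG and at 37, 41.5 and 46.6 CPM in A159V IgG. This was a rise of 0.50 on the log2 scale (standard error 0.15, adjusted p = 0.0278). It was 35.9, 35.5 and 43.1 CPM in WT anti-PD1 and 39, 34.1 and 34.5 CPM in A159V anti-PD1, where the groups overlapped and the log2 fold change was -0.09 (adjusted p = 0.705). Its call under IgG was lost without WT IgG replicate 1 or 2 or A159V IgG replicate 2 or 5 (adjusted p of 0.0666 to 0.14). It was also lost in 7 of 10 settings other than leaving out 1 library, RLE and upper-quartile scaling among them. Cfl1, the cofilin of most non-muscle cells and the member with the highest level per length of the axis, was at 278 to 480 CPM per kb. Its log2 fold change was 0.07 under IgG (adjusted p = 0.782) and 0.36 under anti-PD1 (adjusted p = 0.122). Neither Cfl2 nor Ssh2 was called in a comparison, with log2 fold changes of -0.45 and 0.18 under IgG.

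**Figure D2:**
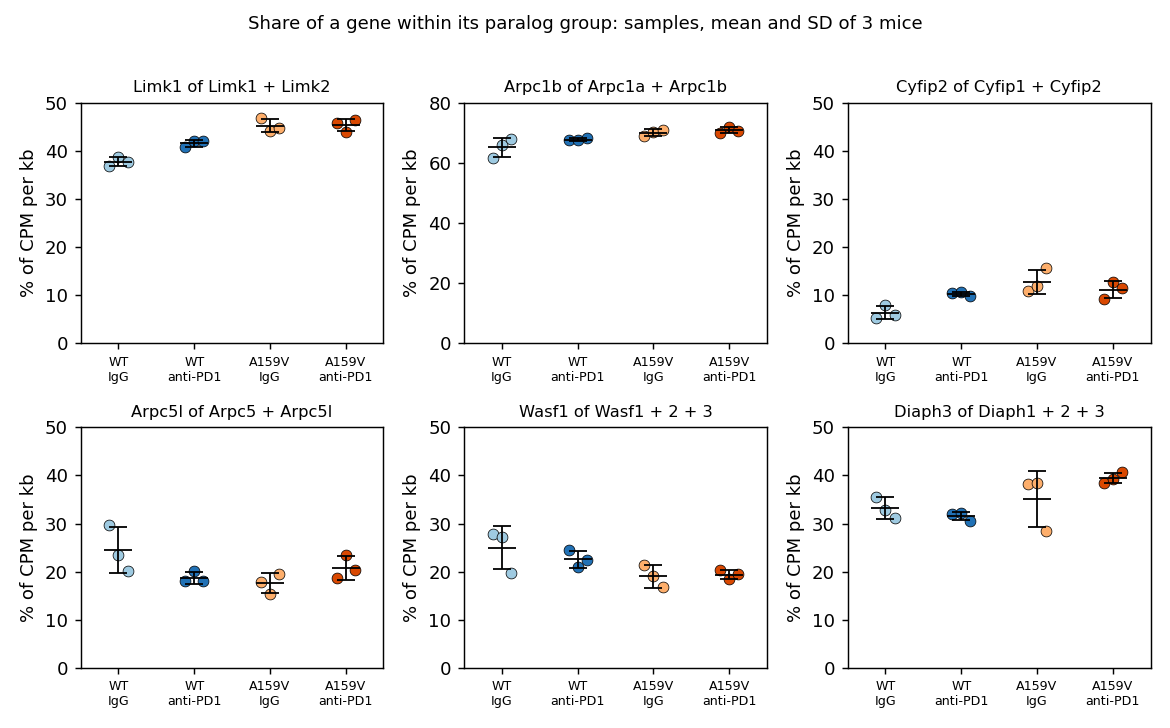
Percent of the summed CPM per kb of a paralog group that came from the named gene, for each sample (points) with the mean and SD of 3 mice (bars). The share of Limk1 was 44% to 46.8% in the A159V samples and 36.9% to 42% in the WT samples, and that of Arpc1b was 69% to 71.9% and 61.8% to 68.3%.

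Among nucleation factors, 3 WAVE genes were called under IgG, all higher, and none was called under anti-PD1. Cyfip2, a Rac-binding subunit on chromosome 11 from 46193850 to 46312859, was at 3.33, 7.4 and 5.57 CPM in WT IgG and at 13.3, 16.1 and 16.7 CPM in A159V IgG. It reached 11.6, 10.9 and 10.4 CPM in WT anti-PD1 and 9.59, 12 and 11.9 CPM in A159V anti-PD1, where the groups overlapped. The WT IgG samples were thus the lowest. Under IgG, its log2 fold change was 1.51 (standard error 0.23, adjusted p = 0.000868), a call kept under every alternative tried, and under anti-PD1 it was 0.03 (standard error 0.23, adjusted p = 0.943). The difference between genotypes in the response to anti-PD1 was -1.48 on the log2 scale (standard error 0.33, adjusted p = 0.135) and was not called. It was called by DESeq2, without WT IgG replicate 4, and without WT IgG replicate 1 and A159V IgG replicate 5 together.

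Wasf2, which encodes the WAVE protein of most cells, was at 74.5, 105 and 158 CPM in WT IgG and at 176, 193 and 183 CPM in A159V IgG. The corresponding values under anti-PD1 were 149, 141 and 152 CPM in WT and 162, 135 and 152 CPM in A159V. The groups were separate under IgG, by 0.71 on the log2 scale (standard error 0.20, adjusted p = 0.0223), and overlapped under anti-PD1 (log2 fold change 0.02, adjusted p = 0.949). The IgG call was lost without WT IgG replicate 1 or 2 or A159V IgG replicate 2 (adjusted p of 0.065 to 0.103). Nckap1l, known as Hem1 and best known from blood cells, was at 18.5, 30 and 33.4 CPM in WT IgG and at 38.9, 43.2 and 36.4 CPM in A159V IgG. In WT anti-PD1 it was at 41.7, 38 and 49 CPM and in A159V anti-PD1 at 39.3, 39.8 and 39.6 CPM. Most leukocyte markers were lower in A159V IgG than in WT IgG, with 9 of 13 tested negative and 4 positive. Mean levels went from 1.31 to 0.103 CPM for Ptprc, and the other way for Cd68 (23.2 to 40.7 CPM) and Lyz2 (3.95 to 6.08 CPM). The part of these markers in the level of Nckap1l was not tested. The log2 fold change of 0.53 under IgG (standard error 0.19, adjusted p = 0.0492) was lost without 11 of the 12 libraries taken singly, WT IgG replicate 4 being the exception (adjusted p of 0.0572 to 0.182).

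All 9 tested WAVE genes had a positive log2 fold change under IgG, with a median of 0.44. With RLE or upper-quartile scaling, 7 of 9 were positive. Brk1, the smallest subunit, had the highest level per length, at 65.5 to 106 CPM per kb, and log2 fold changes of 0.03 and 0.16. Cyfip1, which makes up most of the Cyfip pair, had a log2 fold change of 0.44 under IgG (adjusted p = 0.0543), and 1316 bases of its exons overlap Nipa2 on the other strand. Under anti-PD1 the median over WAVE genes was 0.01, with 5 positive and 4 negative values, and 2 positive and 7 negative values under RLE scaling.

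The Arp2/3 complex was abundant and was higher in A159V in part of its subunits. Arpc1b, on chromosome 5 from 145114215 to 145130705, was at 625, 567 and 534 CPM in WT IgG and at 764, 754 and 856 CPM in A159V IgG. Its values under anti-PD1 were 568, 533 and 535 CPM in WT and 701, 772 and 762 CPM in A159V. No A159V sample overlapped a WT sample. The log2 fold change was 0.46 under IgG (standard error 0.12, adjusted p = 0.0141) and 0.45 under anti-PD1 (standard error 0.12, adjusted p = 0.0185). The first call was lost without WT IgG replicate 2 or A159V IgG replicate 5 (adjusted p of 0.0556 to 0.0867). It was also lost in 6 of 10 other settings, the length trend removed and upper-quartile scaling among them. The second call was lost without replicate 2 or 3 of either anti-PD1 group (0.0589 to 0.0704). It was also lost in 3 of those 10 settings, upper-quartile scaling among them. Exons of Arpc1b share 931 bases with Pdap1 on the other strand.

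On the scale of CPM per kb, Arpc1b took 65.2% ± 3.15 of the Arpc1 pair in WT and 70.1% ± 1.06 in A159V under IgG, and 67.8% ± 0.436 and 70.9% ± 0.907 under anti-PD1. Here too every A159V sample was above every WT sample, between 69% and 71.9% against 61.8% to 68.3%. Arpc2, part of the core that anchors the complex to the mother filament, was at 255, 238 and 228 CPM in WT IgG and at 347, 356 and 267 CPM in A159V IgG. Under anti-PD1 it was at 246, 247 and 234 CPM in WT and at 307, 307 and 318 CPM in A159V, with no overlap in either comparison. It was called under IgG (log2 fold change 0.43, standard error 0.13, adjusted p = 0.0256) and not under anti-PD1 (0.36, standard error 0.13, adjusted p = 0.0617). The IgG call was lost without WT IgG replicate 2 or A159V IgG replicate 1 or 2 (adjusted p of 0.0902 to 0.125). It was also lost in 5 of 10 settings other than leaving out 1 library, RLE and upper-quartile scaling among them.

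Under anti-PD1, all 9 Arp2/3 genes had a positive log2 fold change, between 0.16 and 0.45 with a median of 0.35, and this held under RLE and upper-quartile scaling. Samples of the groups did not overlap for 8 of them, all but Arpc5, yet only Arpc1b was called. Over all genes, 56.1% did not overlap and 21.4% were called in this comparison. Under IgG, 7 of 9 were positive and Arpc3 and Arpc5l were negative. Actr2 and Actr3, the actin-related proteins from which a branch starts, showed how far 1 library can carry a value: Actr2 was at 271, 324 and 305 CPM in WT IgG and at 518, 540 and 264 CPM in A159V IgG. Actr3 was at 267, 261 and 276 CPM and at 423, 416 and 239 CPM in the same groups. Replicates 1 and 2 of A159V IgG were above all WT IgG samples, and replicate 5 was below them. Neither was called (log2 fold changes 0.55 and 0.42, adjusted p = 0.0776 and 0.107), and both were called without A159V IgG replicate 5. Highest per length were Arpc2 and Arpc1b, with 104 to 175 CPM per kb across the samples.

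**Figure D3:**
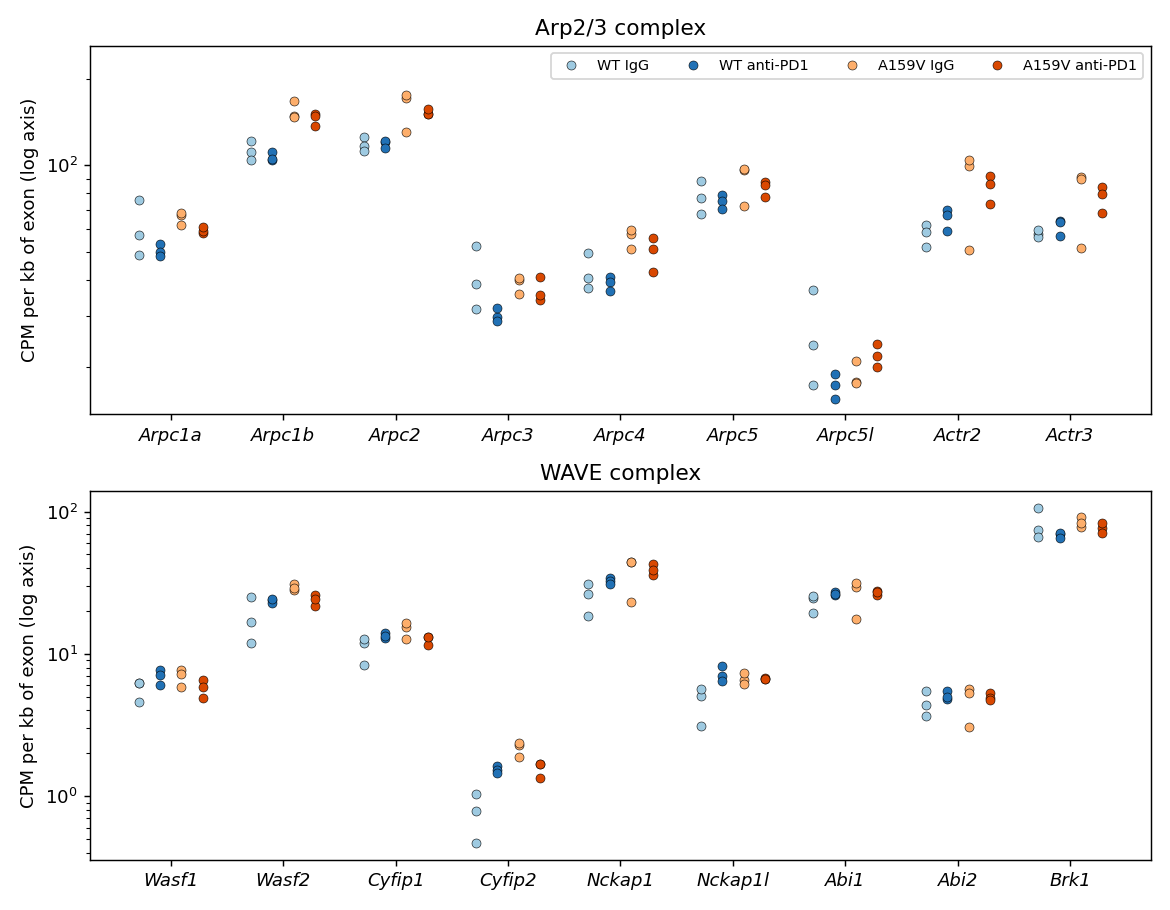
CPM per kb of exon (log axis) of each Arp2/3 subunit (top) and each tested WAVE gene (bottom) in every sample, with 1 colour per group. Arpc1b and Arpc2 lie higher in the A159V samples than in the WT samples, and for Actr2 and Actr3 1 of the 3 A159V IgG samples lies below the WT IgG samples.

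Pak2, the PAK kinase with the highest level per length, was at 129, 171 and 192 CPM in WT IgG and at 296, 309 and 191 CPM in A159V IgG. In the anti-PD1 groups it was at 210, 203 and 179 CPM in WT and at 262, 210 and 252 CPM in A159V. One A159V IgG sample, replicate 5, fell within the WT IgG range. The log2 fold change was 0.69 under IgG (standard error 0.19, adjusted p = 0.019) and 0.29 under anti-PD1 (adjusted p = 0.307), and the call was lost without replicate 1 or 2 of either IgG group (adjusted p of 0.0629 to 0.0792). Pak4, of the other PAK subgroup, was at 34.6, 34.4 and 36 CPM in WT IgG and at 44.8, 44.9 and 49 CPM in A159V IgG. It was at 34.8, 29.6 and 36.1 CPM in WT anti-PD1 and at 38.1, 36.5 and 43.3 CPM in A159V anti-PD1. These groups did not overlap, with log2 fold changes of 0.40 (standard error 0.12, adjusted p = 0.0273) and 0.23 (standard error 0.12, adjusted p = 0.198). Without WT IgG replicate 1 or 2, or any 1 of the A159V IgG samples, the Pak4 call was lost (adjusted p of 0.0557 to 0.139). It was also lost in 6 of 10 settings other than leaving out 1 library, RLE and upper-quartile scaling among them. Pak1 was low at 7.58 to 11.7 CPM and was not called, and Pak3 had at most 3 counts in a sample.

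The scaffold Baiap2, which encodes IRSp53 and links Rac to WAVE at curved membranes, was the member with the smallest adjusted p in both comparisons of genotypes. It lies on chromosome 11 from 119942763 to 120006782. Its level was 264, 238 and 279 CPM in WT IgG and 74.8, 90.9 and 103 CPM in A159V IgG. With anti-PD1 it was 240, 225 and 308 CPM in WT and 78.9, 90.6 and 84 CPM in A159V. All 6 A159V samples were at or below 103 CPM and all 6 WT samples at or above 225 CPM. It fell by 1.54 on the log2 scale under IgG (standard error 0.16, adjusted p = 7.62e-05) and by 1.61 under anti-PD1 (standard error 0.16, adjusted p = 4.54e-05). Leaving out any 1 library kept both calls, with log2 fold changes of -1.73 to -1.42 and -1.70 to -1.46. Iqgap1, a scaffold that binds Rac1 and Cdc42, was not called, with log2 fold changes of 0.60 (adjusted p = 0.0628) and -0.19 (adjusted p = 0.586). Its values in WT IgG, 156, 238 and 355 CPM, spread more widely than those in the other groups.

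**Figure D4:**
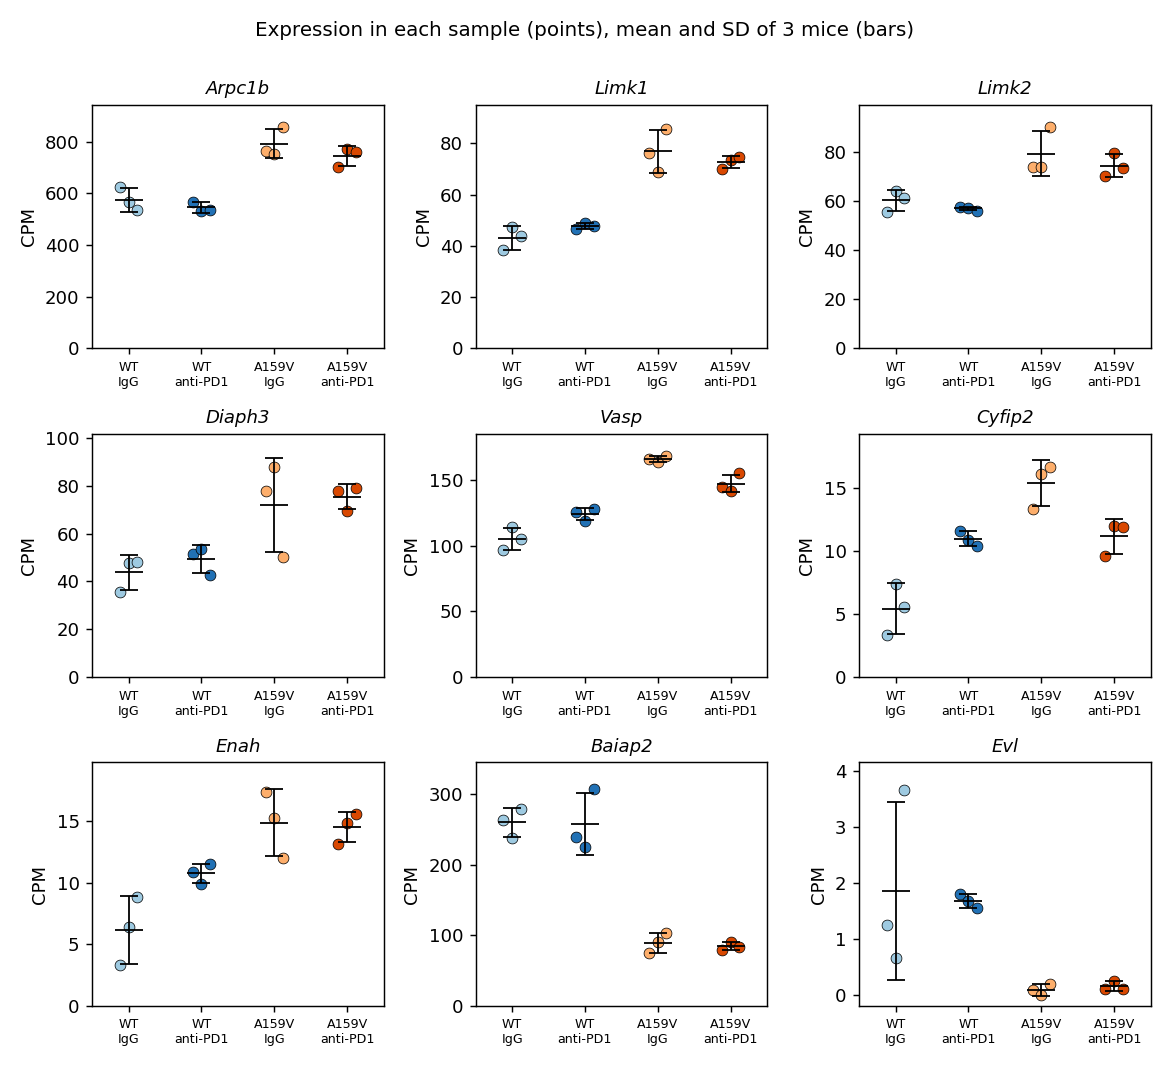
CPM of 9 called members in each sample (points), with the mean and SD of 3 mice per group (bars). Baiap2 was at 74.8 to 103 CPM in the A159V samples and at 225 to 308 CPM in the WT samples, and Cyfip2 and Enah were lowest in WT IgG.

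Evl was the other member that fell in both comparisons. It encodes an Ena/VASP protein, lies on chromosome 12 from 108554720 to 108688516, and was low throughout, with 23, 11 and 73 counts in WT IgG, 2, 0 and 4 in A159V IgG, 35, 25 and 28 in WT anti-PD1, and 2, 5 and 2 in A159V anti-PD1. Scaled for depth, it was at 1.26, 0.673 and 3.66 CPM in WT IgG and at 1.81, 1.68 and 1.56 CPM in WT anti-PD1. Every A159V sample lay below every WT sample, and 3 counts, the smallest amount taken as detectable, were reached by 2 of the 6. From the summed counts, the level in WT was 19.1-fold that in A159V under IgG (95% interval 8.51 to 53.3) and 10.3-fold under anti-PD1 (95% interval 5.2 to 23.3), intervals that cover counting error only. The fitted log2 fold changes, which depend on a prior count at such levels, were -4.11 (standard error 0.77, adjusted p = 0.00235) and -3.32 (standard error 0.73, adjusted p = 0.00659). WT IgG replicate 4 held 73 of the 107 WT IgG counts, and the value under IgG was -3.15 without it and -5.11 without A159V IgG replicate 5, the ends of the range when 1 library was left out. Its exons share 278 bases with Degs2 on the other strand.

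The other Ena/VASP genes went the other way under IgG. Vasp was at 97.1, 114 and 105 CPM in WT IgG and at 166, 164 and 168 CPM in A159V IgG. For anti-PD1 the values were 126, 119 and 128 CPM in WT and 145, 142 and 155 CPM in A159V. The groups were apart in both, and the log2 fold change was 0.66 under IgG (standard error 0.11, adjusted p = 0.00104) and 0.24 under anti-PD1 (standard error 0.11, adjusted p = 0.115). Enah, the mouse Ena homolog Mena, was at 3.33, 6.42 and 8.83 CPM in WT IgG and at 17.4, 15.3 and 12 CPM in A159V IgG. In the anti-PD1 groups it was at 10.9, 9.92 and 11.5 CPM in WT and at 13.2, 14.9 and 15.6 CPM in A159V. Its exons are the longest of the members, and WT IgG replicate 1 was its lowest sample. The log2 fold change was 1.26 under IgG (standard error 0.27, adjusted p = 0.00491) and 0.43 under anti-PD1 (standard error 0.26, adjusted p = 0.257), without overlap in either. The calls of Vasp and Enah under IgG stayed when any 1 library was left out. With the leukocyte score as a covariate both calls were lost, and that of Enah was also lost in the fit to the IgG groups alone.

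Profilins are the monomer carriers, and Pfn1 made up nearly all of the pair. Its level of 245 to 522 CPM per kb was the highest of this role, and its log2 fold changes were -0.02 under IgG (adjusted p = 0.943) and 0.45 under anti-PD1 (adjusted p = 0.0925). Pfn2 was at 5.35, 3 and 7.03 CPM in WT IgG and at 2.75, 2.55 and 1.86 CPM in A159V IgG. In WT anti-PD1 it was at 4.09, 2.61 and 4.18 CPM, and in A159V anti-PD1 at 2.12, 2.29 and 1.67 CPM. WT samples lay above A159V samples under each treatment. It fell by 1.11 on the log2 scale under IgG (standard error 0.31, adjusted p = 0.0204), and under anti-PD1 the value was -0.84 (standard error 0.32, adjusted p = 0.0791). Without WT IgG replicate 4 or A159V IgG replicate 2, the IgG call was lost (adjusted p of 0.0525 to 0.071).

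Of the formins, Diaph1 and Diaph3 were called under IgG. Diaph1, which had the highest level per length of the 3, was at 66.4, 101 and 106 CPM in WT IgG and at 129, 143 and 138 CPM in A159V IgG. Its levels under anti-PD1 were 110, 113 and 96.7 CPM in WT and 128, 110 and 118 CPM in A159V, with overlap. The log2 fold change was 0.58 under IgG (standard error 0.16, adjusted p = 0.0173) and 0.16 under anti-PD1 (adjusted p = 0.522), and the call was lost without A159V IgG replicate 2 (adjusted p = 0.0563). Diaph3 was at 35.5, 47.8 and 48.1 CPM in WT IgG and at 77.9, 87.8 and 50.2 CPM in A159V IgG. Under anti-PD1 it was at 51.6, 53.7 and 42.8 CPM in WT and at 77.9, 69.4 and 79 CPM in A159V. A159V samples were above WT samples in both comparisons, by 0.72 on the log2 scale under IgG (standard error 0.19, adjusted p = 0.0167) and by 0.61 under anti-PD1 (standard error 0.19, adjusted p = 0.0393). These calls were lost without WT IgG replicate 1 or A159V IgG replicate 1 or 2 under IgG (adjusted p of 0.0565 to 0.0774), and under anti-PD1 without any 1 of the 6 anti-PD1 samples or WT IgG replicate 2 (0.0605 to 0.161). Diaph2 was at 12.2 to 31.1 CPM and was not called.

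The effect of anti-PD1 itself was tested in each genotype. In WT cells, edgeR called 0 of the 37 members, against 0.628% of all genes. At an unadjusted p under 0.05 there were 11 members, and 3937 of all 14340 genes. DESeq2 called 4 members (Cyfip2, Enah, Nckap1l and Pfn1) and 10% of all genes, and voom called 1 (Cyfip2) and 1.31%. Without WT IgG replicate 4, 12 members and 23.6% of all genes were called. Without A159V IgG replicate 5, 1 member (Cyfip2) and 4.08% of all genes were. The smallest adjusted p among the members was that of Cyfip2 (log2 fold change 1.01, standard error 0.24, adjusted p = 0.0587). Samples overlapped between the treatments for Limk1, Baiap2 and Arpc1b, with log2 fold changes of 0.14, -0.01 and -0.08.

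In the same comparison, the log2 fold change rose with exon length across the members (Spearman's coefficient 0.71, Pearson's r 0.68, n = 37 genes that share the same libraries), and less over all genes (Spearman's coefficient 0.44). Pfn1, Arpc3 and Cfl1, with 2405, 2762 and 2844 bases of exon, had values of -0.58, -0.44 and -0.40, and Iqgap1, Ssh2 and Enah, with 16538, 18519 and 21452 bases, had values of 0.58, 0.53 and 0.80. Spearman's coefficient was 0.50 for the genotypes under IgG, which uses the same WT IgG samples, and -0.15 under anti-PD1. The part of transcript length in the results was not tested, and the count of members called with the length trend removed is given above.

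**Figure D5:**
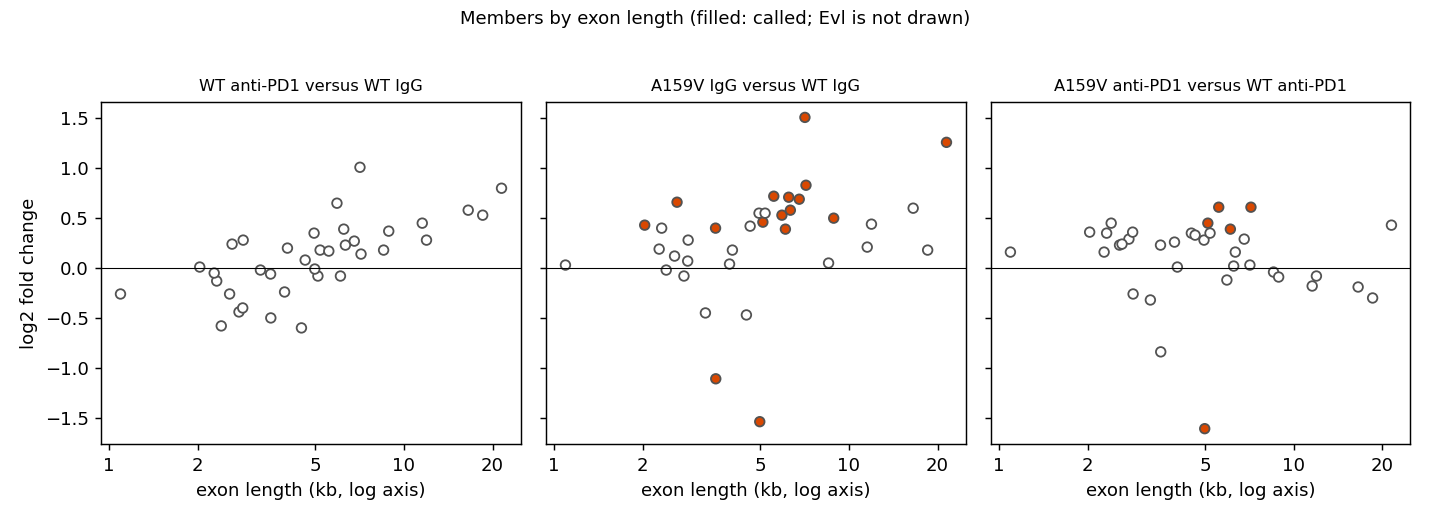
Log2 fold change of each tested member except Evl against its exon length (log axis, in kb), for anti-PD1 against IgG in WT (left) and for the genotypes under IgG (middle) and under anti-PD1 (right); filled points are called. Values rise with length in the left panel (Spearman's coefficient 0.71 with Evl included) and not in the right panel (-0.15).

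In A159V cells, 0 members were called between anti-PD1 and IgG by edgeR, DESeq2 or voom, as were 0% of all genes by edgeR. At an unadjusted p under 0.05, there were 0 members with edgeR (521 of all 14340 genes), 2 with DESeq2 and 1 with voom. The median log2 fold change of the members was -0.09. For Limk1 the value was -0.08 (95% interval -0.34 to 0.18) and for Baiap2 -0.08 (95% interval -0.41 to 0.25). The difference between genotypes in the response to anti-PD1 was called for 0 members, against 0.00697% of all genes, which is 1 gene. Of the members, 10 had an unadjusted p under 0.05, as had 2517 of all 14340 genes. DESeq2 called 1 member, Cyfip2, and 2.05% of all genes, and voom called 0 members and 0.00697%. Without WT IgG replicate 4, the difference was called for 6 members and 8.07% of all genes. Comparisons that use the WT IgG samples share them, so their values are not independent.

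Upstream and beside these effectors, 98 of 100 related genes had a row and 90 were tested. Under IgG, 18 were called higher and 9 lower, and under anti-PD1 7 were higher and 13 lower. Over all genes, 15.6% were higher and 12.4% lower under IgG, and 11.2% higher and 10.2% lower under anti-PD1, so counts of a list of this size are to be read against those shares. Rac GEFs, the exchange factors that load Rac with GTP, were called higher in 8 of 19 tested and lower in 0 under IgG. Their log2 fold changes there had a median of 0.56, with 0.018 over all genes. Under anti-PD1, 2 were higher and 4 lower, with a median of -0.15. Between anti-PD1 and IgG in WT, 17 of the 19 were positive (median 0.6) and 1 was called. The difference in response was negative for 18 of them (median -0.72) and called for 0. The WT IgG samples enter each of these comparisons except that under anti-PD1. Of 10 tested GAPs and GDIs, which hold Rac inactive, 1 was higher and 2 were lower under IgG, and 1 was higher and 1 lower under anti-PD1. The GTPases of the Rac family and its relatives had 2 higher and 3 lower of 11 under IgG and 0 higher and 2 lower under anti-PD1. Among actins and proteins that bind monomers or filament ends, 2 of 13 were higher and 1 was lower under IgG, and 1 was higher and 2 were lower under anti-PD1. Inhibitors and disassembly factors of Arp2/3 branches had 2 higher and 1 lower of 8 under IgG and 1 higher and 2 lower under anti-PD1. The further regulators of PAK, LIMK and cofilin had 2 higher of 8 in each comparison and none lower. Of 12 further formin, IQGAP and I-BAR genes, 2 were lower in each comparison and none was higher, and of 9 further nucleation-promoting factors 1 was higher under IgG and 0 were called under anti-PD1.

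By p-value, Vav1, Prex1 and Rhou led the higher calls under IgG. Vav1, a GEF best known from blood cells, rose from 1.72 ± 0.221 CPM in WT IgG to 6.56 ± 0.872 CPM in A159V IgG (SD, n = 3), with log2 fold changes of 1.93 under IgG (adjusted p = 9.5e-05) and 1.03 under anti-PD1 (adjusted p = 0.00352). Prex1, another GEF, was at 1.09 ± 0.163 CPM in WT and 4.2 ± 0.32 CPM in A159V under IgG, and at 3.83 ± 0.627 CPM and 4.16 ± 0.649 CPM under anti-PD1. The WT IgG group was thus the lowest, and Prex1 was called between genotypes under IgG (log2 fold change 1.93, adjusted p = 0.000218) and between treatments in WT (1.80, adjusted p = 0.0129). Rhou, an atypical GTPase of the Cdc42 branch, was likewise lowest in WT IgG, with 15 ± 1.36 CPM in WT IgG and 25.1 to 27.4 CPM as the means of the other groups. These were the 2 related genes called between treatments in WT.

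On the lower side under IgG were Tmsb4x, Daam2 and Arhgdig. Tmsb4x, which encodes an actin monomer-binding thymosin and has near-identical copies that make its counts uncertain, fell from 6.81 ± 3.39 CPM in WT IgG to 0.356 ± 0.124 CPM in A159V IgG, with log2 fold changes of -4.23 (adjusted p = 0.000183) and, under anti-PD1, -4.35 (adjusted p = 0.000101). Daam2, a formin, fell from 1.84 ± 0.151 CPM to 0.497 ± 0.167 CPM, and Arhgdig, a GDI, was at 16 to 53 counts in WT IgG and at 1 to 6 counts in A159V IgG. Under anti-PD1, the calls with the smallest p were higher Arhgdib, Pak6 and Vav1 and lower Tmsb4x, Gsn and Coro1a. Arhgdib, a GDI of blood cells, was at 8.17 ± 1.17 CPM in WT anti-PD1 and 41.6 ± 1.65 CPM in A159V anti-PD1. Pak6, a PAK outside the 40 genes, was at 0.786 ± 0.143 CPM and 3.64 ± 0.851 CPM in the same groups. Gsn, the filament-severing gelsolin, was at 238 ± 39.8 CPM and 117 ± 7.2 CPM, and Coro1a, a coronin of leukocytes, at 4.95 ± 1.98 CPM and 0.832 ± 0.286 CPM, in groups that also differed in leukocyte and stromal markers as given above.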

How the data were processed

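The authors aligned reads to mm10 with STAR, handled the alignments in Samtools and obtained a count for each gene from summarizeOverlaps. The deposited values are raw counts for 33219 features in 12 samples, and the counting mode, strand setting and annotation are not given in the sources used here. Identifiers were matched to GENCODE M21 (32064 matched), which also gave exon lengths. Genes passing filterByExpr were fitted with edgeR 4.0.16 (quasi-likelihood, TMM scaling, all 12 samples in 1 model of 4 groups), and p-values were adjusted by the method of Benjamini and Hochberg over all 14340 genes. CPM use TMM-scaled library sizes, and CPM per kb divides by exon length. Standard errors are log2 fold changes divided by the square root of F. The count taken as a floor was 3, or 0.144 to 0.201 CPM, and intervals on counts cover counting error only. Named genes were all members called in any comparison with full values, the member with the highest level per length in each role, and for related genes up to 3 calls per direction by p-value in each comparison of genotypes. The members, lists and tests were chosen with earlier results of these data known. Alternatives were RLE and upper-quartile scaling, no filter, DESeq2 1.42.0, voom in limma 3.58.1 and separate fits. Others were a replicate block, a leukocyte covariate and leaving out each sample. The replicate block also takes out the libraries whose number no other sample carries, so it is not separate from leaving out samples. The fits were tested on simulated data. The paper gives n = 3 mice per group for these samples, so p-values measure the spread between mice carrying the same cell population.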

Additional observations from a re-analysis of the deposited data

How the results depend on the processing

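Of the 17 members called between genotypes under IgG, 11 were called with upper-quartile scaling and 11 without a filter on low counts. A fit to the groups compared alone called 5, and 3 were called with the leukocyte score as a covariate. The shares of all genes were 25.5%, 15.5%, 10.3% and 5.13% in this order. Leaving out 1 sample gave 8 to 20 members, and 17.5% to 32% of all genes. Under anti-PD1, in place of 6 calls there were 3 with upper-quartile scaling, 11 in the fit to these groups alone and 0 with the leukocyte score. There were 11 without WT IgG replicate 1 and A159V IgG replicate 5, and 3 to 7 when 1 sample was left out. The shares of all genes were 19%, 38.5%, 0.0139%, 37.9% and 10.4% to 28.3% in this order. Between treatments in WT, in place of 0 calls there were 1 without the filter, 4 with DESeq2 and 1 with voom. There was 1 without those 2 samples, and 0 to 12 when 1 sample was left out. The shares of all genes were 3.25%, 10%, 1.31%, 3.07% and 0.00684% to 23.6% in this order. For the difference in response, DESeq2 gave 1, the fit without those 2 samples 1, and leaving out 1 sample 0 to 6. Here the shares of all genes were 2.05%, 2.06% and 0% to 8.07%. The cause was not tested. For samples with the same replicate number, deviations from the group means had correlations r from -0.178 to 0.205 (13 pairs, 3 over 0.1). With 3 samples per group, these values cannot decide whether the number marks a pairing, and the main fit did not use it. With a replicate block, 23 members were called under IgG, 12 under anti-PD1, 14 between treatments in WT and 11 for the difference in response. Over all genes, the block called 40.9%, 35%, 32.4% and 19.2% in this order. The block also takes WT IgG replicate 4 and A159V IgG replicate 5 out of the comparisons, as each is the only sample with its number. It is therefore not a check separate from leaving out samples. Without WT IgG replicate 4 alone, 12 members and 23.6% of all genes were called between treatments in WT. No fold change of a called member changed sign under any alternative, but some sizes moved far. With the leukocyte score, the log2 fold change under anti-PD1 went from -3.32 to -0.1 for Evl and from 0.61 to 0.14 for Limk1. That of Baiap2 stayed between -1.7 and -1.46 in every fit, though its call was lost with the score. In the 10 settings other than leaving out 1 sample, the IgG calls of Limk2 and Nckap1l were lost in 8. That of Ssh1 was lost in 7, those of Arpc1b and Pak4 in 6, and that of Arpc2 in 5. The IgG calls of Baiap2, Cyfip2 and Limk1 were lost in 0, and those of the remaining members in 1 to 3. Under anti-PD1, calls were lost in 1 to 4 of these settings. Depth limits Evl, Pfn2 and the 3 members below the filter most.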
